A study of Mus musculus with 12 samples.

Results

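The 36 genes described here belong to the type I interferon response and are known as interferon-stimulated genes. They were chosen by name, and all 36 were found among the 55487 genes of the count table through an annotation of the mouse genome GRCm38. RNA was measured in 12 libraries of sorted microglia from YARG mice at postnatal day 13, with 3 libraries for each sex of ARG1+ and of ARG1- microglia. In YARG mice a yellow fluorescent protein (YFP) is made from the *Arg1* locus, so both populations came from mice with the same reporter allele and differed in whether the cells fluoresced. Cells were taken from brain tissue ventral to the corpus callosum, and were sorted for CX3CR1, a chemokine receptor of microglia, and against CD206, a marker of border macrophages. Each library was made from the pooled tissue of several mice of 1 sex. The study used 3 litters per sex and split the sorted cells by YFP, so an ARG1+ and an ARG1- library may come from the same pool. The labels do not say which libraries came from the same litter, so the test was unpaired. P values therefore measure the spread between libraries and make no use of shared pools. The labels name no infection and no interferon treatment.

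Type I interferons are secreted proteins, foremost interferon beta and the interferon alphas, that cells make after sensing foreign or misplaced nucleic acid. They bind the receptor of IFNAR1 and IFNAR2, whose kinases JAK1 and TYK2 activate STAT proteins. STAT2 and IRF9 are parts of the factor ISGF3, which binds the interferon-stimulated response element in promoters and switches on genes that restrict viruses. Microglia are the resident macrophages of the brain and carry this pathway.

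Total counts lay between 28356659 and 60625170 per library. Mitochondrial genes took 0.247% to 0.636% of them in ARG1- and 0.147% to 0.396% in ARG1+ libraries. Genes with a count numbered 17846 to 19844 in ARG1- and 19018 to 21734 in ARG1+ libraries. The part of these differences in the results was not tested. The 8 microglial markers examined were present in every library, at a summed 47685 to 63629 CPM in ARG1- and 37564 to 48371 CPM in ARG1+ microglia (CPM, read counts scaled to the normalised size of each library), and 6 of the 8 were lower in ARG1+ microglia. *Arg1* mRNA was at 0 in all 6 ARG1- libraries and reached at most 1.48 CPM in an ARG1+ library, so the transcript itself did not check the labels. Among 7 border macrophage markers 5 were tested and none passed, with 3 fitted above 0 and 2 below. The list summed to 106 to 141 CPM in ARG1- and 111 to 237 CPM in ARG1+ libraries. Most of this was *Mrc1*, the gene of CD206, at 100 to 138 CPM in ARG1- and 102 to 231 CPM in ARG1+ libraries. *Ms4a7* had means of 0.353 and 2.73 CPM (log2 fold change 3.01, adjusted p = 0.176). *Lyve1* and *Cd163* were at 0 in all ARG1- libraries and reached at most 0.238 and 0.715 CPM in an ARG1+ library. Among 7 markers of plasmacytoid dendritic cells, which make much interferon alpha, 4 were tested and none passed, with 3 fitted above 0 and 1 below. The list summed to 4.98 to 33.3 CPM and 16.8 to 28.6 CPM. Most of this was *Pacsin1* (means 20.3 and 20.4 CPM), and *Cox6a2* had means of 4.09 and 2.03 CPM. *Ccr9* was at 0 in 5 ARG1- libraries and at 0.295 to 1.87 CPM in the ARG1+ libraries (log2 fold change 3.54, adjusted p = 0.242). *Klk1* and *Dntt* were at 0 in all 12 libraries. Of 7 monocyte markers, *Plac8* was lower and *Fn1* higher in ARG1+ microglia, and the list summed to 5.12 to 14.1 CPM and 3.70 to 7.77 CPM. *Fn1* was at 0 in all ARG1- libraries and in 2 ARG1+ libraries, and it met the count filter only through ARG1+ libraries. Of 6 astrocyte markers *Slc1a3* was lower, with no overlap (mean 176 CPM in ARG1- and 131 CPM in ARG1+ microglia, adjusted p = 0.00817), and the list summed to 176 to 224 CPM and 129 to 150 CPM. Most of this sum was *Slc1a3* alone. The next highest, *Aldoc*, had means of 9.55 and 3.58 CPM, and no astrocyte marker other than *Slc1a3* passed. Of 8 markers of T or NK cells only *Klrb1c* could be tested, which was higher, from 0 in all ARG1- libraries to at most 0.969 CPM (adjusted p = 0.0162), and 4 of the 8 were at 0 in all 12 libraries. *Klrb1c* likewise met the count filter only through ARG1+ libraries. Of 6 markers of the oligodendrocyte lineage 4 were tested and none passed, all 4 fitted below 0, with sums of 38.9 to 89.2 CPM and 20.0 to 51.3 CPM. None passed among 5 neuronal markers tested (sums of 1.69 to 16.7 CPM and 2.16 to 7.52 CPM) and 4 endothelial markers tested (28.5 to 57.4 CPM and 44.0 to 84.0 CPM), and no neutrophil marker had enough counts (at most 3.31 and 0.946 CPM in sum). The part of other cell types in the results was not tested. In bulk samples, fewer cells that use a gene and less RNA of it per cell cannot be told apart.

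Most of the interferon-stimulated genes did not pass the test between ARG1+ and ARG1- microglia, and those that did went both ways. *Ifit2* and *Ifi44* were higher in ARG1+ microglia, and *Slfn2*, *Ifi27l2a*, *Ifitm3*, *Bst2* and *Rtp4* were lower. A gene passed, or was called, when its adjusted p in the quasi-likelihood test of edgeR was under 0.05, with Benjamini–Hochberg correction across 16908 genes and with sex as a covariate. The 2 higher genes are 5.56% of the 36, where 6.44% of all genes tested were higher, and the 5 lower genes are 13.9%, where 9.42% of all genes tested were lower. In either direction 19.4% of the 36 passed, against 15.9% of all genes tested, so these shares lay near the background. At an unadjusted p under 0.05 there were 10 of the 36, beside 4919 of the 16908 genes tested. The median log2 fold change of the 36 genes, ARG1+ minus ARG1-, was -0.05, beside 0.06 over all genes tested. Of the 36, 16 were fitted above 0 and 20 below, and of all genes tested 9065 above and 7843 below. The populations did not overlap for 1 gene higher in ARG1+ microglia (*Ifi44*) and 1 lower (*Slfn2*), where 3.48% and 6.56% of all genes tested did the same. Of these, *Ifi44* met the count filter only through its ARG1+ libraries.

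**Figure D1:**
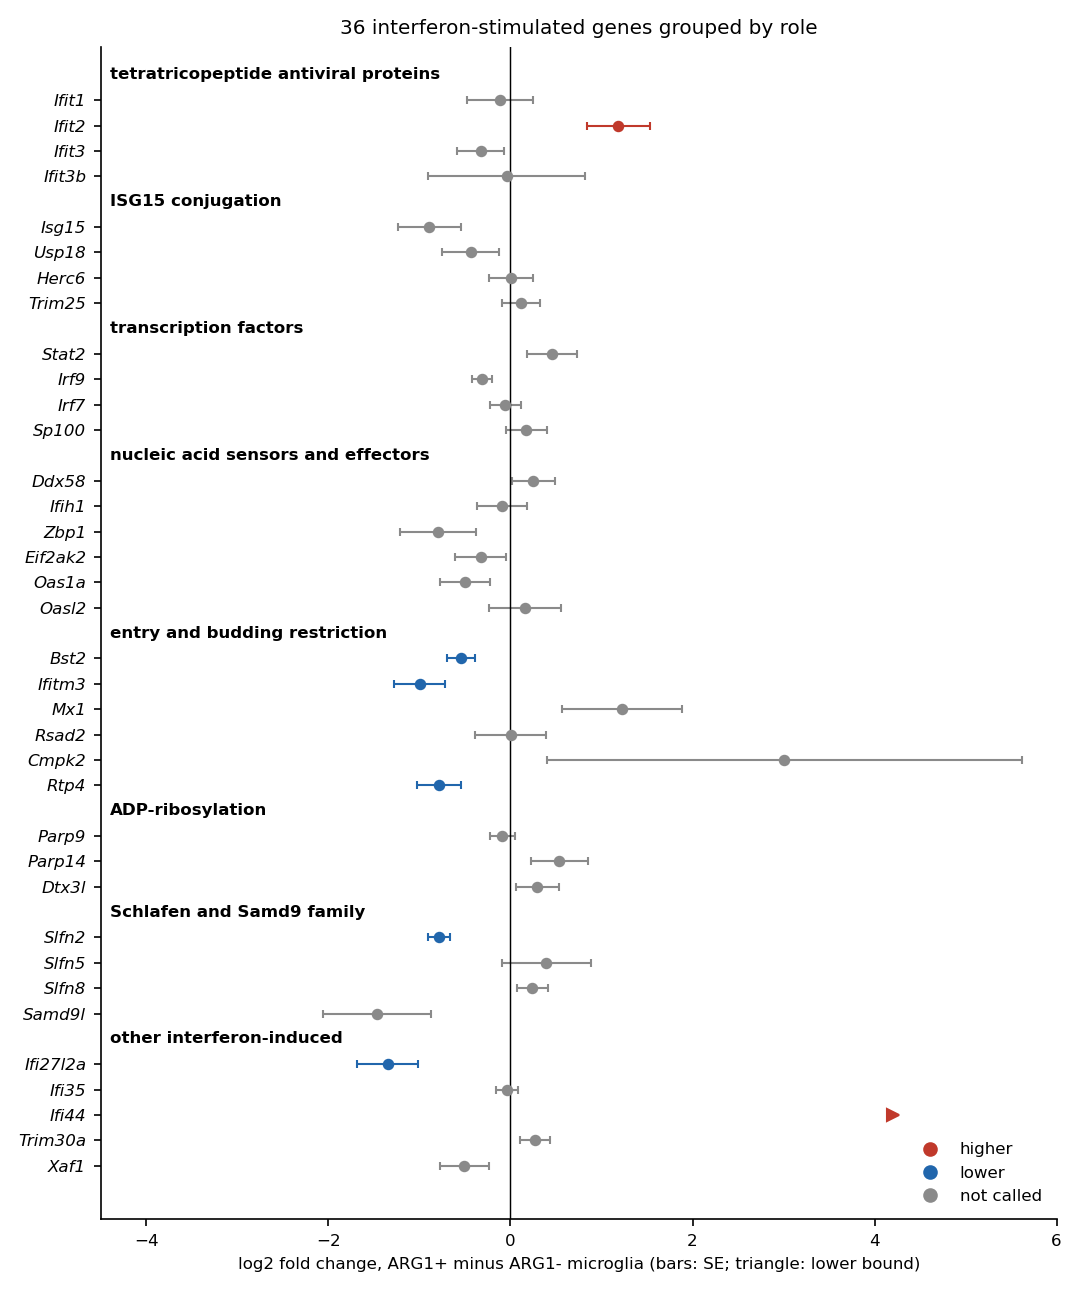
Log2 fold change of each of the 36 interferon-stimulated genes between ARG1+ and ARG1- microglia (horizontal axis, points are fitted values over 12 libraries, bars are SE), grouped under broad labels of role. The 5 lower genes lie between -1.35 and -0.55, *Ifit2* lies at 1.18, *Ifi44* is drawn as a triangle at its lower bound of 4.20, and the other 29 are grey.

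The response element that ISGF3 reads was looked for as its core GAAANNGAAA, on either strand, in RefSeq promoters of GRCm38.p6 from 250 bases before to 50 bases after each start. Promoters were at hand for 29 of the 36 genes, and 15 of the 29 (51.7%) held at least 1 core, against 3.99% of the 27025 gene symbols in the same table. At least 2 cores, which may overlap, were held by 7 of the 29, against 0.266% of all symbols. The gamma-activated site TTCNNNGAA, an element of the interferon gamma response, occurred in 6 of the 29 (20.7%), against 9.55% of all symbols. The stretches below, with the fixed bases of each core in capitals, show how the cores are arranged. *Bst2* and *Ifitm3* were the genes with a core that passed the test, both lower in ARG1+ microglia. *Isg15* and the neighbours of *Ifit2* on chromosome 19, *Ifit1*, *Ifit3* and *Ifit3b*, also held cores and did not pass.
Isg15: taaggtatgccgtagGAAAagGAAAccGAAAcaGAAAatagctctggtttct
Bst2: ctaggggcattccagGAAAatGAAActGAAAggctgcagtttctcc
Ifitm3: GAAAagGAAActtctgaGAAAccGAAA
Ifit1: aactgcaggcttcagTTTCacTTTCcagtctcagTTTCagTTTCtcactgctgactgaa
Ifit3: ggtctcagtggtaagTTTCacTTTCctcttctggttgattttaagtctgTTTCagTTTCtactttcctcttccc
Ifit3b: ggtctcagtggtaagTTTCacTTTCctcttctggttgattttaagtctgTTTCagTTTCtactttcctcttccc

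Each is written in the direction of its gene. The *Isg15* stretch is chr4:156200860-156200911 (minus strand) and holds 3 overlapping cores that begin 78, 72 and 66 bases before the start. The *Bst2* stretch is chr8:71537572-71537617 (minus strand) and the *Ifitm3* stretch chr7:141010716-141010742 (minus strand), where both cores lie just after the start. The *Ifit1* stretch is chr19:34640770-34640828, that of *Ifit3* chr19:34583358-34583431 and that of *Ifit3b* chr19:34607754-34607827, all on the plus strand, with the cores on the opposite strand. Over these 74 bases *Ifit3* and *Ifit3b* have the same letters.

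The next 3 stretches are the 100 bases before the start of the genes whose calls held most often or that rose, *Slfn2* (chr11:83065012-83065111, plus), *Ifit2* (chr19:34550594-34550693, plus) and *Ifi44* (chr3:151749911-151750010, minus). No core was found in the promoter windows of these genes, which says only that these letters are not in these windows.
Slfn2: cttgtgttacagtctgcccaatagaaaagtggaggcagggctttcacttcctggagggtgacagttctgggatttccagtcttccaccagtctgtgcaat
Ifit2: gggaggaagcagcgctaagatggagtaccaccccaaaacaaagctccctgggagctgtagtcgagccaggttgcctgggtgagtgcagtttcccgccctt
Ifi44: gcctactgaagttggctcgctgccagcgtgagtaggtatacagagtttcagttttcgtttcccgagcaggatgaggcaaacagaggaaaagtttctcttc

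Of the 15 genes with a core, 0 were higher and 2 lower in ARG1+ microglia, with a median log2 fold change of -0.09, and of the 14 without one, 2 were higher and 1 lower, with a median of 0.06. Of the 7 genes with no promoter in the table, 0 were higher and 2 lower, with a median of -0.44. Over all genes tested 6.44% were higher and 9.42% lower, with a median of 0.06. Whether these small groups differ from each other or from all genes was not tested.

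*Slfn2*, a Schlafen family protein needed for quiescence and survival of immune cells, showed the clearest decrease. Its levels in the ARG1- females were 108, 136 and 148 CPM and in the ARG1- males 129, 141 and 150 CPM. In the ARG1+ females they were 65.5, 74.1 and 90.8 CPM and in the ARG1+ males 93.6, 72.0 and 75.7 CPM. Every ARG1+ library lay below every ARG1- library. The fitted difference was -0.78 on the log2 scale (SE 0.12, adjusted p = 0.00132), with -0.77 in females and -0.80 in males, and the gene passed the test in all 9 other settings and in all 12 fits that left out 1 library. *Slfn2* lies at chr11:83065112-83070678, close to *Slfn5* and *Slfn8*. These relatives were not called, with log2 fold changes of 0.40 (SE 0.49) for *Slfn5* and 0.24 (SE 0.17) for *Slfn8*.

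*Ifi27l2a*, a small interferon-induced membrane protein, fell further than *Slfn2* on the log2 scale but with a wider spread. The ARG1- females had 20.2, 35.1 and 17.7 CPM and the ARG1- males 32.8, 28.4 and 21.8 CPM. The ARG1+ females had 11.7, 7.56 and 20.4 CPM and the ARG1+ males 11.9, 4.54 and 7.14 CPM. ARG1+ female 15, at 20.4 CPM, was the only ARG1+ library inside the range of the ARG1- libraries. The fitted difference was -1.35 on the log2 scale (SE 0.33, adjusted p = 0.0171), with -0.88 in females and -1.82 in males. It passed in all 9 other settings, and among the fits that left out 1 library it was lost only without ARG1+ male 16 (adjusted p = 0.0583).

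*Ifitm3*, which blocks the fusion of virus particles with endosomes, had 16.3, 28.7 and 13 CPM in the ARG1- females and 25.8, 24.8 and 19.7 CPM in the ARG1- males. The ARG1+ females had 8.37, 14.4 and 15.2 CPM and the ARG1+ males 10.3, 5.61 and 11.1 CPM. ARG1- female 13 lay below ARG1+ females 8 and 15, and the other ARG1- libraries lay above all ARG1+ libraries. The fitted difference was -1.0 on the log2 scale (SE 0.28, adjusted p = 0.03). *Ifitm3* passed in 5 of the 12 fits with 1 library left out, and the adjusted p was 0.0563 to 0.0854 without ARG1- female 2, ARG1- male 5 or 6, ARG1+ female 7, or ARG1+ male 11, 12 or 16.

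*Bst2*, also called tetherin, holds budding virus particles at the cell surface. It stood at 54.7, 68.5 and 53.2 CPM in the ARG1- females and at 70.4, 68.1 and 57.9 CPM in the ARG1- males. In the ARG1+ females it stood at 38.9, 35.1 and 50.4 CPM and in the ARG1+ males at 54.8, 31.5 and 44.3 CPM. ARG1+ male 11 lay just above ARG1- females 1 and 13, and the other 5 ARG1+ libraries lay below all ARG1- libraries. The fitted difference was -0.55 on the log2 scale (SE 0.15, adjusted p = 0.0294). *Bst2* passed in 5 of the 12 fits with 1 library left out, and the adjusted p was 0.0575 to 0.0903 without ARG1- female 2, ARG1- male 5 or 6, ARG1+ female 7 or 8, or ARG1+ male 12 or 16.

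*Rtp4*, a chaperone of cell surface receptors that interferon induces strongly, had 22.7, 54.9 and 43.9 CPM in the ARG1- females and 70.6, 58.1 and 65.4 CPM in the ARG1- males. The ARG1+ females had 21.5, 34.9 and 32.2 CPM and the ARG1+ males 40.1, 21.7 and 28 CPM. Except for ARG1- female 1, which sat among the ARG1+ libraries, the populations were apart. The fitted difference was -0.79 on the log2 scale (SE 0.24, adjusted p = 0.0453). This call was the least stable of the 7. Without any 1 library other than ARG1- female 1 the adjusted p was 0.0544 to 0.127, without ARG1- female 1 it was 0.00829, and 4 of the 9 other settings also moved it above 0.05. About 10.5% of the 75-base stretches of *Rtp4* transcripts, the length of the reads, also occur in transcripts of *Gm45338*, so part of its counts is uncertain.

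**Figure D2:**
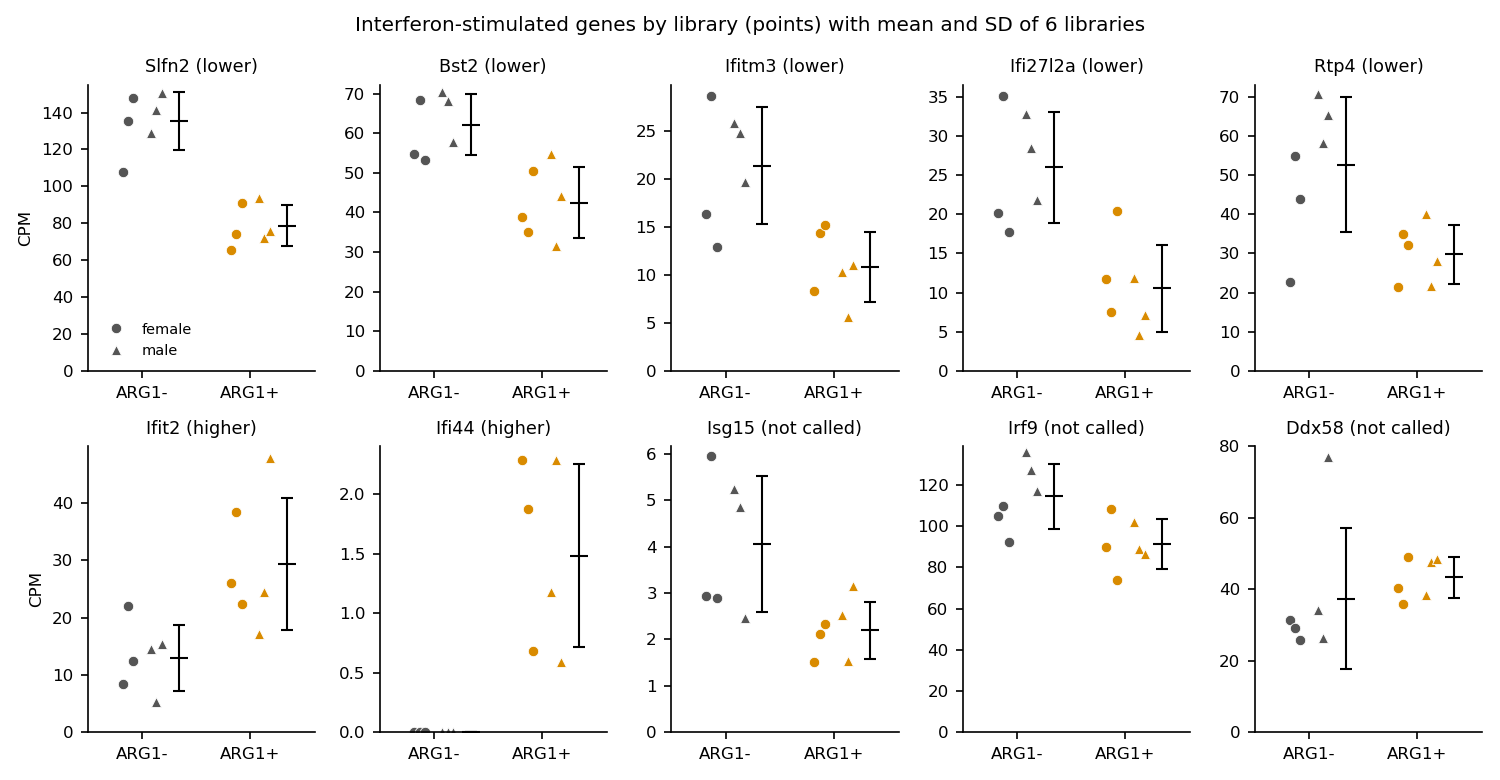
CPM (vertical axes from 0) of 10 interferon-stimulated genes in each library of ARG1- and ARG1+ microglia, with circles for females, triangles for males, and the mean and SD of the 6 libraries of a population beside them. The top row holds the 5 lower genes, of which only *Slfn2* has no overlap, and the bottom row holds *Ifit2*, *Ifi44* with 0 in all ARG1- libraries, and 3 genes that did not pass, among them *Ddx58* with 1 ARG1- male at 77.1 CPM.

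*Ifit2* encodes an antiviral tetratricopeptide protein that binds RNA. Its levels were 8.34, 21.9 and 12.4 CPM in the ARG1- females and 14.4, 5.25 and 15.4 CPM in the ARG1- males. They were 25.9, 38.4 and 22.3 CPM in the ARG1+ females and 17.2, 24.4 and 47.7 CPM in the ARG1+ males. ARG1- female 2 lay above ARG1+ male 11, and the other libraries of the populations were apart. The fitted difference was 1.18 on the log2 scale (SE 0.35, adjusted p = 0.0364), with 1.02 in females and 1.35 in males. *Ifit2* passed in all 9 other settings and in 4 of the 12 fits with 1 library left out, and the adjusted p was 0.0545 to 0.0911 without ARG1- female 1 or 13, ARG1- male 5 or 6, ARG1+ female 7 or 8, or ARG1+ male 12 or 16.

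The relatives of *Ifit2* lie beside it on chromosome 19, from *Ifit2* at 34550694 to the end of *Ifit1* at 34650009, and did not pass the test. *Ifit1*, which recognises foreign messenger RNA caps, ranged from 4.38 to 15.4 CPM (median 6.39) in ARG1- and from 5.57 to 13.2 CPM (median 7.15) in ARG1+ microglia. *Ifit3*, which stabilises IFIT1, ranged from 9.78 to 24.7 CPM (median 15.7) and from 8.31 to 17.4 CPM (median 13.8). Their log2 fold changes were -0.11 (SE 0.36) and -0.33 (SE 0.26). *Ifit3b* had -0.04 (SE 0.86) and was at 0 in ARG1+ female 7. Whether *Ifit2* differed from these neighbours was not tested, and 41.1% of the 75-base stretches of *Ifit3* and 35.7% of those of *Ifit3b* occur in the other gene, so their counts are uncertain.

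*Ifi44*, a cytoplasmic protein of the interferon response, was at 0 counts in all 6 ARG1- libraries. The ARG1+ females had 2.28, 1.87 and 0.684 CPM and the ARG1+ males 1.18, 2.29 and 0.593 CPM, from 20 to 109 counts. Against a floor of 3 counts in each ARG1- library, on average 0.0808 CPM, the ARG1+ mean of *Ifi44* was at least 18.4-fold higher (adjusted p = 0.00167). It passed in all 8 other settings in which it could be tested and in all 12 fits with 1 library left out. *Ifi44* met the count filter only through its ARG1+ libraries. These fits reuse the same 0 counts, so they are not separate support. *Ifi44* was the lowest of the 36 genes per kilobase of exon in both populations, at 0.242 CPM per kilobase in ARG1+ microglia.

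The conjugation system of *Isg15*, a ubiquitin-like protein that is attached to other proteins, held 4 genes and none passed. *Isg15* itself ranged from 2.46 to 5.94 CPM (median 3.90) in ARG1- and from 1.52 to 3.14 CPM (median 2.22) in ARG1+ microglia. It stood at -0.89 on the log2 scale (SE 0.35, adjusted p = 0.104), and it passed when only genes with 10 or more counts in each library were tested (adjusted p = 0.0468) and in DESeq2's Wald test (adjusted p = 0.0367). *Usp18*, the protease that removes ISG15 and dampens the receptor, had a log2 fold change of -0.44 (SE 0.31). The ligases *Herc6* and *Trim25* had 0.01 (SE 0.24) and 0.12 (SE 0.21).

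Of the 4 transcription factors and nuclear proteins none passed. *Irf9*, the DNA-binding part of ISGF3, ranged from 92.4 to 136 CPM (median 113) in ARG1- and from 73.8 to 108 CPM (median 89.4) in ARG1+ microglia. It stood at -0.31 on the log2 scale (SE 0.11, adjusted p = 0.0823), and it passed with an added term for the libraries numbered 13 to 16 (adjusted p = 0.0499) and without ARG1+ female 8 (adjusted p = 0.0437). Its partner *Stat2* had 0.45 (SE 0.28), with ARG1- males 6 and 14 at 17.8 and 19.2 CPM and the other 10 libraries between 35.5 and 66.7 CPM. *Irf7*, the amplifier of interferon alpha, had -0.05 (SE 0.17), and *Sp100*, a nuclear body protein, 0.18 (SE 0.23).

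None of the 6 sensors and effectors of nucleic acid passed. *Ddx58*, which encodes the RNA sensor RIG-I, ranged from 25.8 to 77.1 CPM (median 30.4) in ARG1- and from 36.1 to 49.2 CPM (median 44.0) in ARG1+ microglia, at 0.25 on the log2 scale (SE 0.24, adjusted p = 0.537). The value of 77.1 CPM was that of ARG1- male 14, and without this library *Ddx58* passed, at 0.57 on the log2 scale (adjusted p = 0.0199). *Zbp1*, a sensor of Z-form nucleic acid, had -0.79 (SE 0.42), *Oas1a*, an activator of RNase L, -0.50 (SE 0.27), and the kinase *Eif2ak2*, or PKR, -0.33 (SE 0.28). *Ifih1*, which encodes the RNA sensor MDA5, had -0.09 (SE 0.27), and *Oasl2* 0.16 (SE 0.40). Of the 75-base stretches of *Oas1a*, 47.6% occur in *Oas1g*.

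Beside *Bst2*, *Ifitm3* and *Rtp4*, the group listed under entry and budding restriction held *Mx1*, *Rsad2* and *Cmpk2*, and none of these last passed. The label is a loose one, since *Rtp4* is a receptor chaperone and *Cmpk2* a nucleotide kinase. *Mx1*, a GTPase that traps viral nucleocapsids, ranged from 0.119 to 7.35 CPM (median 3.58) in ARG1- and from 4.07 to 11 CPM (median 9.25) in ARG1+ microglia, at 1.22 on the log2 scale (SE 0.66, adjusted p = 0.245). *Rsad2*, or viperin, had 0.00 (SE 0.39). Its neighbour on chromosome 12, the nucleotide kinase *Cmpk2*, was at 0 in ARG1- female 13 and in all 3 ARG1- males, at 3.48 and 13.2 CPM in ARG1- females 1 and 2, and between 2.05 and 6.11 CPM in the 6 ARG1+ libraries (adjusted p = 0.491). Within males *Cmpk2* passed (adjusted p = 0.0441), and the ARG1+ mean was at least 60.3-fold higher than a floor of 3 counts in each ARG1- male library. With ARG1- counts only in females 1 and 2, *Cmpk2* met the count filter only through its ARG1+ libraries. The male call is therefore not separate support. Within females it had -0.85 on the log2 scale (SE 1.42, adjusted p = 0.799).

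None of the 3 ADP-ribosylation genes passed. *Parp9*, which forms a complex with a ubiquitin ligase, ranged from 59.7 to 97.0 CPM (median 72.5) and from 61.7 to 82.0 CPM (median 67.2), with a log2 fold change of -0.09 (SE 0.13). That ligase, *Dtx3l*, ranged from 40.4 to 104 CPM (median 57.8) and from 51.4 to 101 CPM (median 73.7), with 0.29 (SE 0.24). The genes overlap by 682 bases on opposite strands (chr16:35938470-35939151), and since the library kit does not mark strand, reads there cannot be assigned to one of them. *Parp14*, a mono-ADP-ribosyltransferase, had 0.54 (SE 0.31).

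Of the remaining genes, *Slfn8* ranged from 38.8 to 59.3 CPM (median 50.9) in ARG1- and from 42.0 to 74.9 CPM (median 57.4) in ARG1+ microglia. *Trim30a*, a ubiquitin ligase, ranged from 41.1 to 66.3 CPM (median 53.4) and from 48.7 to 89.1 CPM (median 63.3), with a log2 fold change of 0.27 (SE 0.16). *Ifi35* ranged from 44.0 to 58.6 CPM (median 48.9) and from 43.9 to 63.5 CPM (median 47.1), with -0.04 (SE 0.12). *Samd9l*, a restrictor of growth and translation, stood at -1.47 (SE 0.59, adjusted p = 0.118), the largest fitted decrease of the 36, with ARG1+ males 11 and 16 at 0.818 and 1.69 CPM and ARG1- male 14 at 27.3 CPM. *Xaf1*, an antagonist of an inhibitor of apoptosis, had -0.51 (SE 0.27).

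Levels were compared between genes as mean CPM per kilobase of exon. In ARG1- microglia *Slfn2* was highest (81.4 CPM per kilobase), followed by *Bst2* (68.8), *Ifi27l2a* (56.2), *Ifitm3* (31.6), *Ifi35* (29.2) and *Rtp4* (24.7), so 5 of the 6 highest were the 5 genes lower in ARG1+ microglia. These 5 are short (463 to 2131 bases), and the order depends on the division by length. In mean CPM of ARG1- microglia *Slfn2* (135) was also highest, but *Ifi27l2a* (26.0) and *Ifitm3* (21.4) lay below *Irf9* (115) and *Parp9* (74.7). In ARG1+ microglia *Slfn2* (47.3) and *Bst2* (47.1) were still the highest, and *Ifi35* (28.5), *Ifi27l2a* (22.8), *Irf9* (17) and *Ifitm3* (16) followed. Other genes had fewer CPM per kilobase, among them *Ifit3* with 9.81 in ARG1- and 7.83 in ARG1+ microglia, *Oas1a* with 8.83 and 6.09, *Usp18* with 6.84 and 5.06, *Isg15* with 5.36 and 2.90, *Ifit1* with 3.23 and 2.98, *Rsad2* with 1.59 and 1.46 and *Mx1* with 1.01 and 2.22. These examples were picked after their values were seen.

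The 36 genes also varied among libraries of 1 population. Their summed level ran from 891 to 1223 CPM over the ARG1- and from 922 to 1046 CPM over the ARG1+ libraries. In ARG1- female 1 only 9 of the 36 genes lay above the mean of the ARG1- libraries and in ARG1- female 13 only 8, against 27 in ARG1- female 2 and 26 in ARG1- male 5. ARG1- female 13 held the lowest value of the 6 ARG1- libraries for 16 genes. The median SD of log2(CPM + 0.5) was 0.540 in ARG1- and 0.362 in ARG1+ microglia, and the SD was larger in ARG1- microglia for 24 of the 36 genes (66.7%). Over all genes tested the medians were 0.434 and 0.330 and the share 70.3%, so the same difference in spread was present genome-wide.

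**Figure D3:**
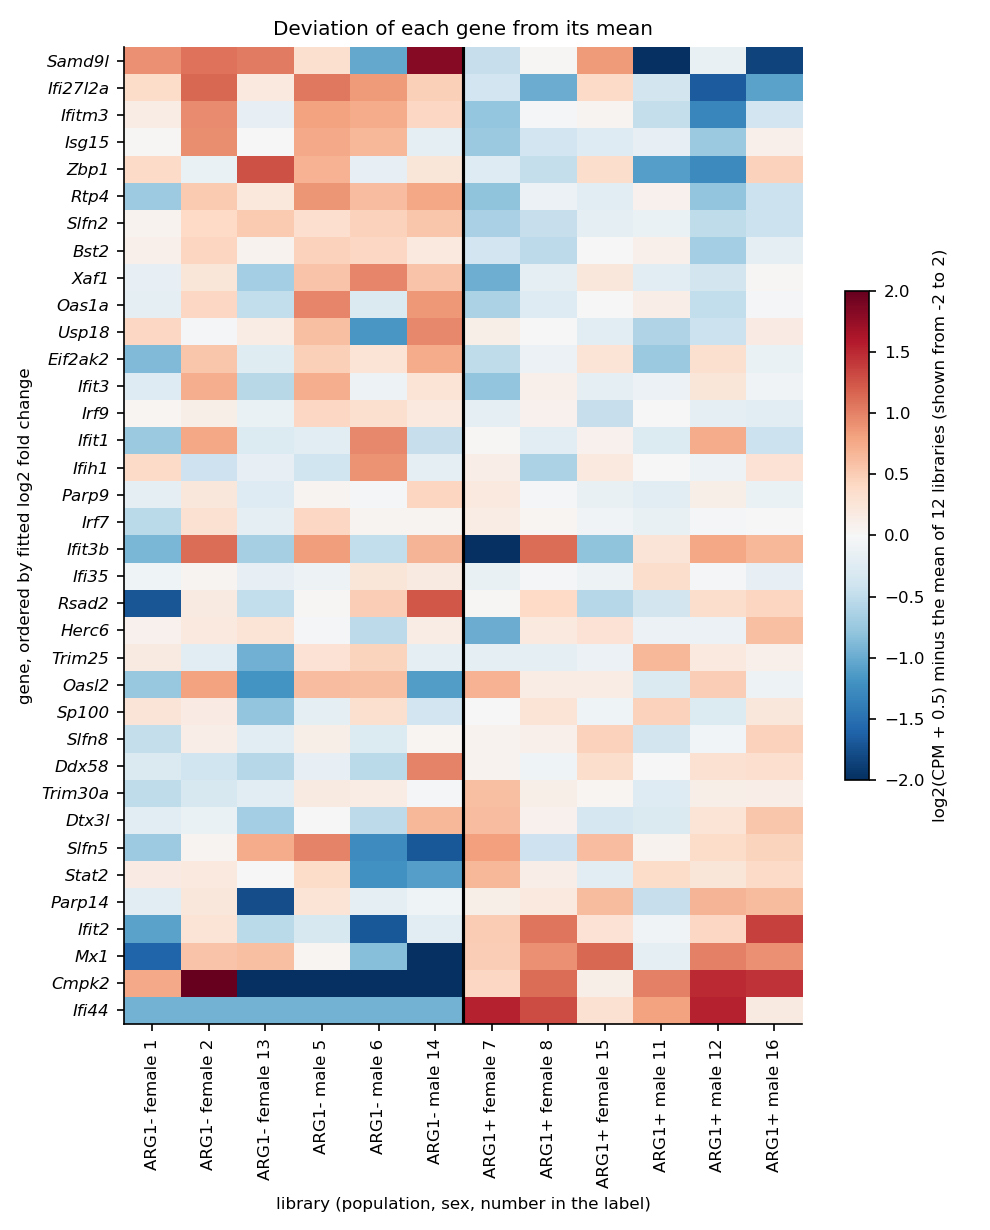
Deviation of each interferon-stimulated gene (rows, ordered by fitted log2 fold change) in each of 12 libraries (columns, ARG1- left and ARG1+ right of the black line) from its mean, as log2(CPM + 0.5), red above and blue below. *Slfn2*, *Bst2*, *Ifitm3* and *Ifi27l2a* are mostly red on the left and blue on the right, *Ifit2* and *Ifi44* the reverse, and *Cmpk2* is far below its mean in 4 ARG1- libraries.

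Between the sexes none of the 36 genes passed in edgeR's test within either population. In ARG1- microglia, male minus female, 0 of 36 passed (4 at an unadjusted p under 0.05, smallest adjusted p = 0.264), where 0.0946% of all genes tested did. In ARG1+ microglia 0 of 36 passed (0 unadjusted, smallest adjusted p = 1.0), where 0.0355% of all genes did. For the difference between the sexes in the ARG1 effect 0 of 36 passed (2 unadjusted, *Cmpk2* and *Trim30a*, smallest adjusted p = 0.433), where 0.0% of all genes did. *Cmpk2* was the exception in other settings. It passed the sex comparison in ARG1- microglia and the difference between sexes in DESeq2's Wald test (adjusted p = 1.81e-05 and 0.000955) and without ARG1- female 13 (adjusted p = 0.01 and 0.0467). Its ARG1- counts came only from females 1 and 2, and ARG1- female 13 was the only ARG1- female at 0. These sex calls of *Cmpk2* therefore rest on 2 libraries against 0 counts in all ARG1- males. Within females 2 of the 36 genes passed between ARG1+ and ARG1- microglia (*Slfn2* and *Ifi44*, 5.56%), where 6.76% of all genes tested did, and within males 4 passed (*Slfn2*, *Ifi44*, *Ifi27l2a* and *Cmpk2*, 11.1%), where 5.13% did. *Ifi44* and *Cmpk2* were at 0 in all ARG1- males and met the count filter only through ARG1+ libraries. The share within males is therefore not read as an excess.

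Transcript length ran alongside these results. The 5 lower genes had exons of 463 to 2131 bases in all (median 903), and all 5 fell into the shortest of 3 equal length classes of all genes tested (up to 2364 bases), while *Ifit2* (3927) lay in the middle class and *Ifi44* (6129) in the longest. Of the 10 interferon-stimulated genes in the shortest class 0 were higher and 5 lower, with a median log2 fold change of -0.66, and of the 14 in the longest class 1 was higher and 0 lower, with a median of 0.17. All genes tested showed a like gradient of smaller size, since 14.3% of the shortest class were lower and 3.48% higher (median -0.13), and 3.45% of the longest class were lower and 11.3% higher (median 0.25). Spearman's correlation of exonic length with the fold change was 0.58 over the 36 genes and 0.18 over 16874 genes, all from the same 12 libraries, and is given as a description. When the trend of each library on length and GC content was removed, a setting added after seeing the data, *Slfn2*, *Ifi27l2a* and *Rtp4* stayed lower and *Ifit2* and *Ifi44* stayed higher, while *Bst2*, at -0.38 on the log2 scale (SE 0.14, adjusted p = 0.0868), and *Ifitm3*, at -0.77 (SE 0.28, adjusted p = 0.0881), did not pass. Of 10 genes listed for retained introns or nuclear RNA, 5 were higher in ARG1+ microglia (*Rsrp1*, *Ccnl1*, *Ccnl2*, *Srsf5* and *Neat1*), and the list had a summed level of 4619 to 7985 CPM against 2144 to 4336 CPM. Of 10 immediate early genes, which respond within minutes to stimulation and also to handling of cells, 9 could be tested and 2 passed, both higher in ARG1+ microglia, namely *Egr1* (log2 fold change 1.31, adjusted p = 0.00825) and *Atf3* (0.99, adjusted p = 0.0401). The median of the 9 was 0.99, 8 of them were fitted above 0, and the list summed to 251 to 408 CPM in ARG1- and 319 to 388 CPM in ARG1+ libraries. Beside both of these lists, 6.44% of all genes tested were higher and 9.42% lower. The part of length, RNA quality and the immediate early genes in the results was not tested further.

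**Figure D4:**
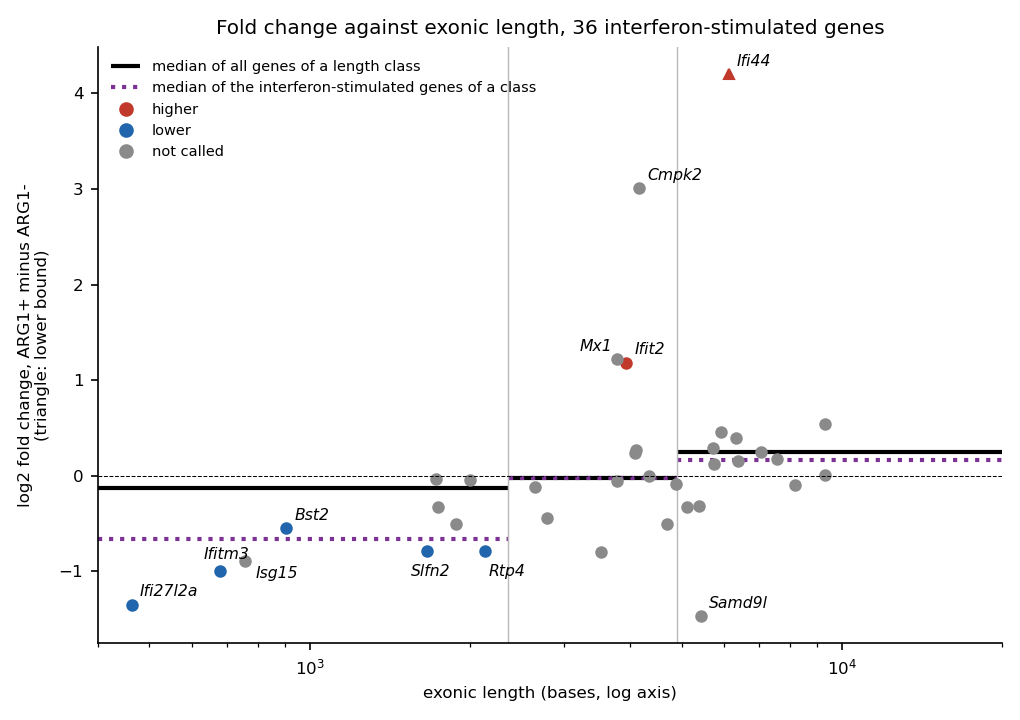
Log2 fold change between ARG1+ and ARG1- microglia (vertical axis) against exonic length in bases (horizontal log axis) for the 36 interferon-stimulated genes, with grey lines between 3 equal length classes of all genes tested. Black lines are the median of all genes in a class (-0.13, -0.02 and 0.25) and dotted lines that of the interferon-stimulated genes (-0.66, -0.03 and 0.17), and *Ifi44* is a triangle at its lower bound.

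The other genes of the pathway were read from lists by role. None of the 21 interferon genes listed had enough counts to be tested, and 18 of them were at 0 in all 12 libraries, with at most 18 counts of any one in a library. Of 17 genes tested among receptors, kinases and STAT proteins with their inhibitors, *Pias1*, a SUMO ligase that restrains cytokine signalling, was higher (log2 fold change 0.47, adjusted p = 0.0433), and *Ifngr2*, a receptor chain of interferon gamma, and the phosphatase *Ptpn6* were lower (-0.31 and -0.32). The receptor genes *Ifnar1* (178 CPM median in ARG1- and 213 CPM in ARG1+ microglia) and *Ifnar2* (181 and 194 CPM) had log2 fold changes of 0.19 (SE 0.11) and 0.19 (SE 0.16), *Jak1* 0.09 (SE 0.13) and *Tyk2* 0.47 (SE 0.19), and none of these passed.

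Of 24 genes for sensing nucleic acid and inducing interferon, 4 were lower (16.7%) and 1 higher (4.17%), beside 9.42% and 6.44% of all genes tested. *Trex1*, the DNase that clears cytosolic DNA, fell from a median of 128 to 74.7 CPM (-0.69, adjusted p = 0.00466). *Tmem173*, which encodes the DNA sensor adaptor STING, fell from 540 to 384 CPM (-0.49, adjusted p = 0.00454). *Myd88*, the Toll-like receptor adaptor, and *Irf5* were lower by -0.34 and -0.29 on the log2 scale, and the kinase *Irak1* was higher (0.56). None of 8 other interferon regulatory factors passed, *Irf8* and *Irf1* having -0.20 (SE 0.11) and -0.27 (SE 0.14).

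Of 69 further type I interferon-induced genes, 12 were lower (17.4%) and 3 higher (4.35%), beside the same 9.42% and 6.44% of all genes tested, and the median log2 fold change was -0.02. Among the 12 were genes of the immunoproteasome and its activator, namely *Psmb8* (-0.64), *Psmb9* (-0.46), *Psme1* (-0.74) and *Psme2* (-0.87), the ISG15-conjugating enzyme *Ube2l6* (-0.77), the galectin *Lgals9* (-0.60), the surface protein *Ly6e* (-0.37), the chemokine *Ccl12* (-0.97), *Ms4a6b* (-0.85), *Nmi* (-0.85), *Trim12a* (-0.62) and *Ifi27* (-0.53). Higher were *Rnf213* (1.02), the ISG15-activating enzyme *Uba7* (0.55) and *Slfn3*, which was at 0 in all ARG1- libraries and met the count filter only through ARG1+ libraries. Of 17 type II interferon-induced genes *Gbp9* was higher (0.61) and *Igtp* lower (-0.36). Over the 135 genes tested in these lists 19 were lower (14.1%) and 6 higher (4.44%), beside 9.42% and 6.44% of all genes tested. By exonic length, 9 of the 19 lower genes fell into the shortest class and 1 into the longest, against 0 and 4 of the 6 higher genes. Without 1 library the number lower ran from 9 (without ARG1+ male 16) to 20 and the number higher from 2 (without ARG1- female 2) to 7.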

How the data were processed

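Microglia of YARG mice were sorted at postnatal day 13 and measured by RNA-seq. The authors made cDNA with SMART-Seq v4 and libraries with Nextera XT, read them as single ends, aligned the reads to GRCm38 (STAR 2.6.1d) and counted them per gene (featureCounts 1.5.1), and the values they deposited are these raw counts, with no normalization. The strand setting of the counting is not given in the sources used here. The reads carry no molecular identifiers, so precision from depth covers counting error only. Column names identified all 12 libraries, with 0 columns over.

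The deposited counts were filtered with filterByExpr on the 4 groups of sex and ARG1 status, normalized by TMM and fitted in edgeR 4.0.16 (R 4.3.3) with glmQLFit and glmQLFTest, with ARG1 status and sex as terms. Sex contrasts and the interaction used a fit with 1 mean per group. Each SE was computed from the log2 fold change and the square root of F. The fit was tested on simulated data. The limit for a call was an adjusted p of 0.05 (Benjamini–Hochberg, all genes). All 36 genes are named. Values by library are given for the called genes, and ranges for the 8 most abundant. Of each pathway list the called genes are named. The planned rule added the 4 most abundant, but the further genes named were picked for their role, and genes of the other lists after their values were seen. The members and lists were chosen with earlier results of these data known.

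Alternatives were DESeq2 size factors, upper-quartile factors, no filter, at least 10 counts in every library, a term for libraries numbered 13 to 16, DESeq2 1.42.0 without a prior, thinning to the smallest total, ARG1 status alone, and each library left out. Removal of each library's trend on exonic length and GC content (mgcv 1.9.3), and every alternative for the pathway lists, were added after seeing the data.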

Additional observations from a re-analysis of the deposited data

Results flagged for a closer look

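In 4 genes 1 library stood far from the other 5 of its population, by Dixon's 95% limit for 6 values, and chance gives about 1 in 20 of the 72 groups searched. *Ddx58* was at 77.1 CPM in ARG1- male 14, where the other ARG1- libraries had 25.8 to 34.4 CPM. *Cmpk2* was at 13.2 CPM in ARG1- female 2, where the others had 0 to 3.48 CPM. *Ifit1* was at 13.2 CPM in ARG1+ male 12, where the others had 5.57 to 8.18 CPM. *Ifi35* was at 63.5 CPM in ARG1+ male 11, where the others had 43.9 to 49.0 CPM. The cause of these values was not tested.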

How the results depend on the processing

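Of the 7 called genes, 4 passed in every other setting in which they could be tested (*Ifit2*, *Ifi44*, *Slfn2* and *Ifi27l2a*), and only *Ifi44* and *Slfn2* also passed in all 12 fits that left out 1 library. For *Ifi44* these fits reuse the 0 counts of the ARG1- libraries, and it met the count filter only through ARG1+ libraries. Of the 29 genes not called, 26 passed in no setting, and 9 changed the sign of their fitted value in at least 1. The number of the 36 genes higher in ARG1+ microglia was 1 with at least 10 counts in every library, where *Ifi44* could not be tested. The number lower was 2 with no filter, where 29671 genes were tested, and 3 with the length and GC trend removed. Leaving out 1 library gave 1 to 3 higher and 1 to 5 lower, fits with fewer samples, and a median log2 fold change of -0.14 to 0.04. DESeq2's Wald test gave 2141 genes higher (1089 by edgeR) and 1964 lower (1593), and 1 of the 36 genes (*Cmpk2*) both between the sexes in ARG1- microglia and in the difference between sexes. Leaving out 1 library gave 690 to 1116 genes higher, 1048 to 1553 lower, and 0 to 1 of the 36 in each of these sex tests. In the pathway lists 10 genes were higher with at least 10 counts in every library and 13 by DESeq2 (6 by edgeR), and 10 lower with no filter (19). Without 1 library they were 2 to 7 and 9 to 20. The cause of the changes was not tested unless stated. No paired analysis was possible because the groups share no replicate number in the labels. Genes under about 3 counts in a library (at most 0.102 CPM) could not be told from absent.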
